A study of Homo sapiens with 6 samples.

Results

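Amino acid transporters carry amino acids across the cell membrane, and 10 of their genes were followed here in HEK293 cells: SLC7A11, SLC7A5, SLC3A2, SLC1A5, SLC1A4, SLC38A1, SLC38A2, SLC7A1, SLC7A3 and SLC6A9. They were chosen by gene name, and each was found among the 56794 genes of the deposited table, where they held 80 of its 203376 transcripts. RNA had been sequenced from 6 libraries of HEK293, a human embryonic kidney line grown to make recombinant protein, in a study of protein yield and of arrest at G0/G1. Of these, 3 came from parental cells that express luciferase, labelled with the genotype Parent, and 3 from luciferase-expressing cells labelled CASP8AP2 Mutant, in which the CASP8AP2 gene is described as deleted with CRISPR. Both groups were grown in medium with 10% fetal bovine serum at 37 °C. The place of the deletion, and whether the mutant cells were 1 clone or a pool, are left unstated in the sources used here. The question was how the RNA of these transporters compared between mutant and parental cells.

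Animal cells import essential amino acids and the raw material of glutathione through a few families of solute carriers. Some of these proteins, such as SLC7A5, SLC7A11 and SLC1A5, exchange a substrate outside for one inside, while SLC38A1 and SLC38A2 use the sodium gradient to build up small neutral amino acids. Together they feed protein synthesis and signal to the growth kinase mTORC1, and when amino acids run short the transcription factor ATF4 switches on several of their genes through the C/EBP-ATF response element, known as CARE. These are background facts and not results of these libraries.

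The table held group means of a length-scaled abundance, with no values of single libraries, so no spread between replicates is given beside a level. The deposited p-value of each transcript carries that spread, and since the labels name no separate cultures for the replicates, that spread may be technical. Abundance is printed with the authors' added 1 taken off, and a gene's level is the sum over its transcripts. Log2 ratios set mutant over parental with 1 added to each, which draws low genes towards 0. The size of 1 read was found from repeated steps in the values. It gave an estimated 13300000, 15000000 and 57500000 reads in the mutant libraries and 9190000 to 15300000 in the parental ones. CASP8AP2 itself stood at 15.7 against 15.9. Of the markers of the line, VIM, KRT18 and PAX2 were present in both groups, KRT8 had 37.3 in the mutant against 70.6 in the parental cells, and the neurofilament genes lay far apart, with NEFL at 434 against 35.7 and NEFM at 0.069 against 8.63. Of 8 markers of blood, endothelium, fibroblasts and liver, 7 were at most 0.205 in both groups, and COL1A1 had 5.82 against 2.17. The part of these differences in the results below was not tested.

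Stretches of 4 promoters are shown first because they hold the CARE letters through which ATF4 can act on transporter genes. RefSeq starts on build GRCh38.p14 were held for 8 of the 10 genes, with 14 starts in all; SLC7A11 and SLC7A3 had no entry. Each line runs from 120 bases before a start through the first 30 transcribed bases, 5′ to 3′ on the gene's strand, with the motif in capitals.
SLC1A4, chr2:64989279-64989428, plus strand: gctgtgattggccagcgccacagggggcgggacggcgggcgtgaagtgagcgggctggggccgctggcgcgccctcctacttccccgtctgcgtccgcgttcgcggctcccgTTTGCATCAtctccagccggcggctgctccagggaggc
SLC7A1, chr13:29595659-29595808, minus strand: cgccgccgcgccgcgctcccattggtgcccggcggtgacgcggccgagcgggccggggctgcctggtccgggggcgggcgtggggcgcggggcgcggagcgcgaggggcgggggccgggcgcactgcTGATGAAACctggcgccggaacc
SLC1A5, chr19:46784785-46784934, minus strand: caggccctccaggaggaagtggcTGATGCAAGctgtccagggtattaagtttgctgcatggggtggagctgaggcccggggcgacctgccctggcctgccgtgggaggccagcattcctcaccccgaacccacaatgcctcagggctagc
SLC38A1, chr12:46266487-46266636, minus strand: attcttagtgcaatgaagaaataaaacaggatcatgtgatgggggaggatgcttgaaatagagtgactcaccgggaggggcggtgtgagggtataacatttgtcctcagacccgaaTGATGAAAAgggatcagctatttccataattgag
The letters searched were TGATGNAAN on both strands, and in the windows from 250 bases before to 50 after a start they were found at 5 of the 14 starts, against 3.61% of 35116 starts over all genes. Positions are counted from the RefSeq start, and a start is named by the GENCODE transcripts that begin within 100 bases of it. In SLC1A4 the match lay on the opposite strand across the RefSeq start, and the main transcript SLC1A4-201 begins 2 bases after that start, just past the match. In SLC7A1 the match lay from base 8 to base 16, and the main transcript SLC7A1-201 begins at that RefSeq start. The SLC1A5 match belonged to an inner start that serves SLC1A5-202 and SLC1A5-205, from 97 to 89 bases before it. No GENCODE transcript of SLC38A1 began within 100 bases of its RefSeq start with a match. The fifth match lay from base 37 to base 45 after the RefSeq start of SLC3A2 at 62881699, with SLC3A2-208 beginning at 62881725, upstream of the match. The letters TGACNNNGC, which are read by NRF2, the factor of the oxidative stress response, were found at 4 of the 14 starts, those of SLC7A1, SLC7A5, SLC3A2-208 and SLC1A5-201, against 13.3% over all genes. The MYC E-box CACGTG was found at 2, those of SLC7A5 and SLC1A5-201, against 7.26%. A match describes letters and not binding.

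No transcript of the 10 genes passed the authors' test of mutant against parental libraries. A p-value was given in the authors' deposited table for 71 of their 80 transcripts, and 0 had an adjusted p under 0.05, where 0.0221% of 140552 transcripts did. The adjusted values of the authors' deposited table lay between 0.647 and 0.998. An unadjusted p under 0.05 was held by 3 of the 71, or 4.23%, against 5.79% of all transcripts, and all 3 were transcripts of SLC3A2 on the higher side. Over the whole table, a share of 3.3% of transcripts passed that threshold higher and 2.48% lower. The values that follow therefore describe the group means. Of the 9 genes that reached an abundance of 1 in a group, 7 lay lower and 2 higher in the mutant cells, while 50.6% of 14856 genes kept by the same minimum lay lower and 49.4% higher. Their median log2 ratio was -0.11, against -0.01 over all genes kept, and their summed abundance was 723 against 840. In bulk RNA, fewer cells that express a gene and less of its RNA per cell cannot be told apart. The main transcript with the least reads behind it among these 9 genes was SLC6A9-205, whose parental mean corresponds to 665 to 1108 reads in a library at the estimated read sizes.

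**Figure D1:**
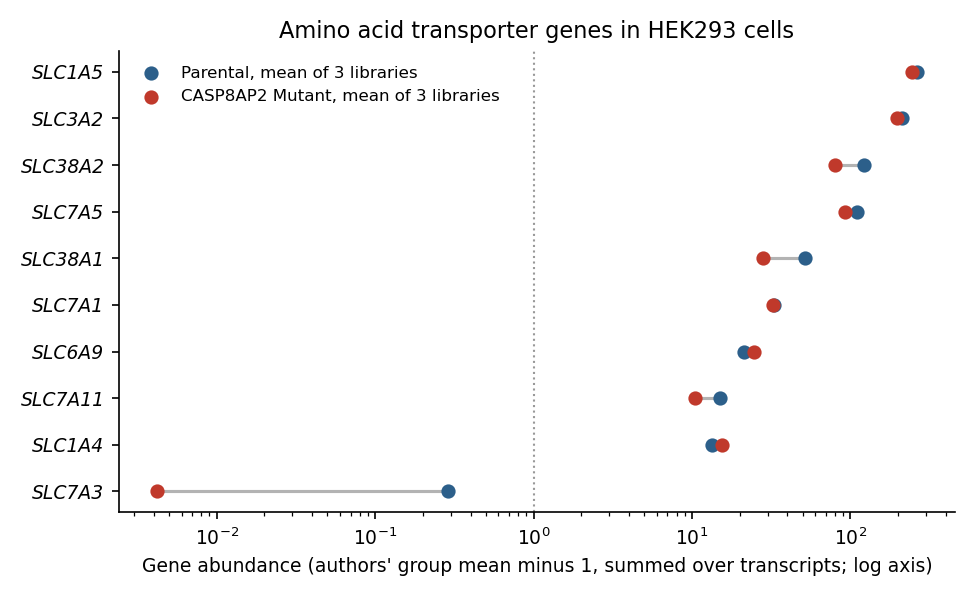
Gene abundance of the 10 transporters (authors' group mean minus 1, summed over transcripts, log axis) in the mutant and parental groups, each point the mean of 3 libraries with no error known. SLC38A1 and SLC38A2 show the widest gaps among the genes above an abundance of 1 (dotted line), and SLC7A3 lies under it in both groups.

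SLC3A2 encodes CD98 heavy chain, the glycoprotein that brings SLC7A5 and SLC7A11 to the membrane. Its gene (chromosome 11, 62856102 to 62888875, plus strand) had 196 in mutant and 210 in parental cells, a log2 ratio of -0.10. SLC7A5, the light chain that takes up leucine and other large neutral amino acids (chromosome 16, 87830023 to 87869488), had 93.0 against 111, a log2 ratio of -0.25. SLC7A11, the light chain that imports cystine for glutathione in exchange for glutamate (chromosome 4, 138164097 to 138242349), had 10.5 against 15.1, a log2 ratio of -0.48. All 3 were thus lower in the mutant group mean. For the main transcripts the authors' deposited table gave unadjusted p-values of 0.526 (SLC3A2-201), 0.656 (SLC7A5-203) and 0.0957 (SLC7A11-201). Heavy chain RNA was 1.89 times the RNA of both light chains together in the mutant and 1.67 times in the parental cells.

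SLC7A5 was carried by a pair of coding transcripts. SLC7A5-203, which begins inside the gene, had 55.1 against 71.9, and SLC7A5-201, which begins at the RefSeq start, had 36.4 against 38.4. A retained-intron form, SLC7A5-202, had 1.43 against 0.515, and the authors' deposited table gave it a p of 0.242. The pseudogene SLC7A5P1, a partial copy on the same chromosome whose reads may be shared with the gene, had 0.680 against 0.537. SLC7A11 was nearly all SLC7A11-201, which made up 98.9% of it in the mutant and 99.7% in the parental cells. The antisense gene SLC7A11-AS1 overlaps it on the other strand and stood at 0.103 against 0.0464, and the sources used here do not say whether counting used strand.

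Within SLC3A2 the transcripts did not lie on the same side. The most abundant form, SLC3A2-201, had 104 against 124, and SLC3A2-208, which begins at a start further on, had 36.0 against 42.8. The 4 longer coding forms SLC3A2-202, SLC3A2-203, SLC3A2-204 and SLC3A2-206 begin at an outer start near base 62856109 and summed to 30.4 against 20.8, so their share of the gene was 15.5% in the mutant and 9.91% in the parental cells. SLC3A2-203 gave most of that difference, with 11.3 against 4.99, and the authors' deposited table gave it a p of 0.0398 and an adjusted p of 0.703. A retained-intron form, SLC3A2-220, had 3.76 against 1.76, with p 0.0163 and adjusted p 0.647 by the authors' deposited table. A more abundant form of that type, SLC3A2-207, had 10.2 against 12.2. SLC3A2-218 and SLC3A2-219, also retained-intron forms, had 6.12 against 5.30 and 3.38 against 2.83. Besides SLC3A2-201 and SLC3A2-208, 8 forms had an abundance of at least 1 in a group, and 7 of them lay higher. The minor coding form SLC3A2-215 had 0.250 against 0.0821, where the authors' deposited table holds a p of 0.0226. These forms share most of their exons, so their levels depend on how shared reads were divided, which the sources used here do not state.

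**Figure D2:**
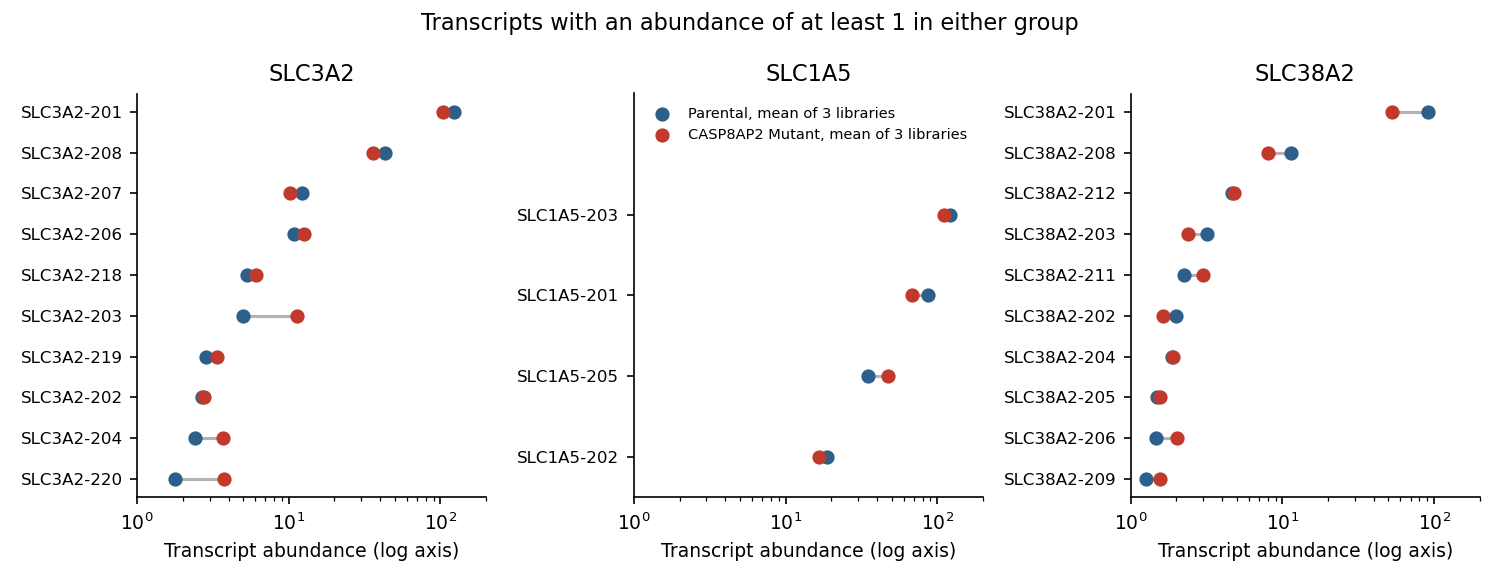
Transcripts of SLC3A2, SLC1A5 and SLC38A2 that reached an abundance of 1 in a group (log axis), each point the mean of 3 libraries. In SLC3A2 the upper 2 forms lie lower in the mutant cells while SLC3A2-203 and SLC3A2-220 lie higher, and in SLC38A2 the main form shows the widest gap.

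SLC1A5 and SLC1A4 are sodium-dependent exchangers of small neutral amino acids. SLC1A5, the main exchanger of glutamine in many growing cells (chromosome 19, 46774883 to 46788594), was the most abundant of the 10 genes, with 243 against 262, and 98.4% of the genes kept had less in the parental cells. SLC1A4, which carries serine, alanine, cysteine and threonine (chromosome 2, 64988477 to 65023865), had 15.4 against 13.4. The log2 ratios were -0.11 for SLC1A5 and 0.19 for SLC1A4. In the authors' deposited table p was 0.683 for SLC1A5-203 and 0.532 for SLC1A4-201, the main transcripts. SLC1A5 RNA was 15.8 times SLC1A4 RNA in the mutant and 19.6 times in the parental cells.

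By start site, SLC1A5-203 from the outer start had 112 against 121, SLC1A5-201 from the next start had 68.1 against 87.4, and the forms of the inner start with the CARE letters had 63.9 against 54.0. The share of the inner start was 26.2% in the mutant and 20.6% in the parental cells, mostly through SLC1A5-205 (47.2 against 35.2). The authors' deposited table lists a p of 0.281 for that form. SLC1A5-202, of the same start, had 16.6 against 18.8. At other starts with the CARE letters, SLC1A4-201 had 14.9 against 13.0 and SLC7A1-201 had 31.7 against 33.0. The forms at the SLC3A2 start at 62881699 had 43.0 against 48.6, and no transcript was placed at that of SLC38A1. Whether the letters bear on these levels was not tested.

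SLC38A1 and SLC38A2 encode sodium-coupled importers of glutamine, alanine and other small neutral amino acids, and both lie on chromosome 12. SLC38A1 (46183063 to 46270017) had 28.1 in the mutant and 51.6 in the parental cells, 0.544 times as much, and 2.65% of the genes kept had a log2 ratio at or under its -0.86. SLC38A2, which cells raise when amino acids run short (46358189 to 46372867), had 80.1 against 122, a log2 ratio of -0.60, and 7.41% of the genes kept lay at or under it. These were the lowest ratios among the 9 genes kept. SLC38A1-201, which made up 96.5% of the gene in the parental cells, had 26.8 against 49.8, and SLC38A2-201 had 52.7 against 91.8. By the authors' deposited table the p-values were 0.0532 for SLC38A1-201 and 0.122 for SLC38A2-201, and the adjusted value was 0.703 for each. Neither main transcript thus had a p under 0.05 in the authors' test, which does not show that the levels were equal.

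The other transcripts of SLC38A2 lay on both sides. Together they had 27.4 against 30.03. Of the retained-intron forms, SLC38A2-212 had 4.80 against 4.67 and SLC38A2-211 had 2.98 against 2.26, while SLC38A2-202 was lower with 1.64 against 1.98. SLC38A2-208, a form annotated for nonsense-mediated decay, had 8.06 against 11.4, and SLC38A2-203 had 2.38 against 3.17. SLC38A2-204 had 1.89 against 1.86, and the coding form SLC38A2-209 had 1.56 against 1.25. Transcripts not annotated as protein coding made up 32.3% of SLC38A2 in the mutant and 23.6% in the parental cells, and with coding transcripts alone the log2 ratio of the gene was -0.77.

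SLC7A1 and SLC7A3 encode carriers of arginine and lysine. SLC7A1 (chromosome 13, 29509410 to 29595688) had 32.3 against 33.2, a log2 ratio of -0.04, and SLC7A1-201 had the highest p of the 9 main transcripts, which the authors' deposited table lists as 0.887. SLC7A3 (chromosome X, 70925582 to 70931125) was barely detected, with 0.0042 against 0.289 over both its transcripts. At the estimated read sizes SLC7A3-202 in the parental group corresponds to 4.63 to 7.72 reads in a library and in the mutant group to less than 1 read, so no ratio is read from it. The authors' deposited table gave that form a p of 0.126, and the gene was left out of the counts of genes.

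SLC6A9 encodes the glycine transporter GlyT1 (chromosome 1, 43991500 to 44031467). It had 24.5 against 21.4, a log2 ratio of 0.19, and SLC6A9-205 made up 89.4% and 87.6% of it. For SLC6A9-205 the authors' deposited table gave a p of 0.475. The long non-coding gene AL139220.2 starts on the other strand within SLC6A9 and had 1.73 against 0.862, where the authors' deposited table gives its main transcript a p of 0.0363.

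The GC content of a gene moved with its log2 ratio in these libraries, with Spearman's rho of 0.31 across the genes kept, which are not independent replicates. The 3 transporters with the lowest ratios were also the poorest in G and C, with 41.3% for SLC38A1, 38.1% for SLC38A2 and 35.4% for SLC7A11 in the main transcript, against a median of 48.6%. At their GC content the running median over all genes was -0.14, -0.15 and -0.14. Taking it off left -0.72, -0.45 and -0.34, and the part of GC content in these ratios was not tested. For the GC-rich genes it widened the distance, to -0.42 for SLC7A5, -0.30 for SLC1A5 and -0.23 for SLC3A2, and it brought SLC6A9 to 0.02. The median of the 9 genes was -0.30 after that step, with 7 lower and 2 higher.

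**Figure D3:**
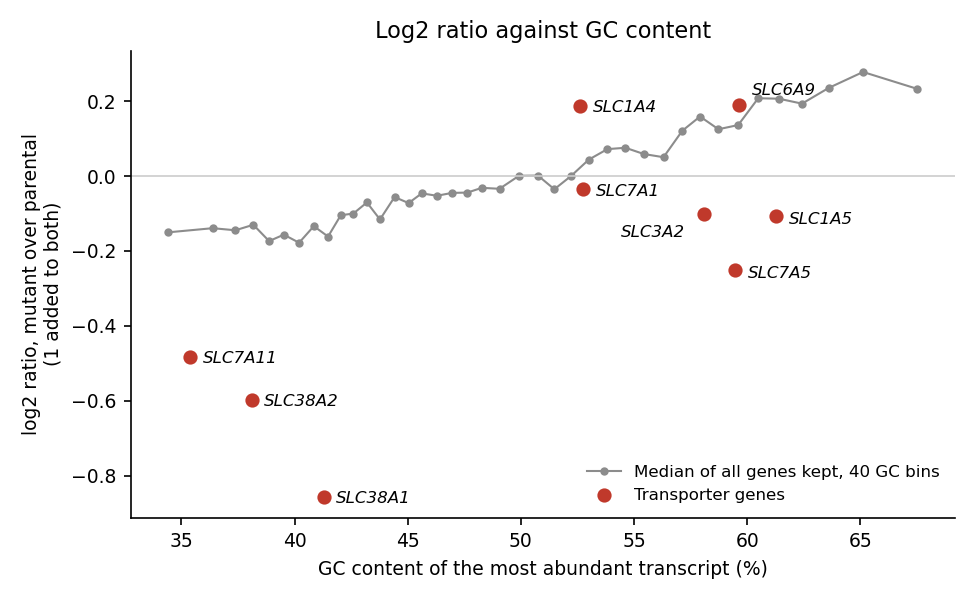
Log2 ratio of mutant over parental against the GC content of the main transcript, for the 9 transporter genes kept and for the median of all genes kept in 40 bins of GC content. SLC38A1, SLC38A2 and SLC7A11 lie at low GC content under the line of medians, and SLC7A5, SLC1A5 and SLC3A2 lie under it at high GC content.

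Other amino acid transporters of the plasma membrane and lysosome did not lie to one side. Of the 20 measured genes of a list of 43, 10 lay higher and 10 lower around a median log2 ratio of -0.0039, and no transcript among them was called. SLC38A9, the lysosomal arginine sensor of mTORC1, had 6.66 against 12.5, and the authors' deposited table gave SLC38A9-201 a p of 0.0895. SLC38A3, a glutamine carrier of the same family, had 0.713 against 1.60, and CTNS, which exports cystine from lysosomes, had 1.91 against 3.16. SLC38A6 had 2.39 against 2.22. Unadjusted p-values under 0.05 were held by the main transcripts of 1 higher and 2 lower genes, where 5.27% of all genes kept were higher and 8.53% lower at that threshold.

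Genes of the ATF4 response lay on both sides, with their median above 0. Over 29 measured genes, ATF4 and its partners included, that median was 0.35 on the log2 scale and 0.21 with the GC trend taken off, 17 genes lay higher and 12 lower, and no transcript was called. ATF4 had 1018 against 781, and the authors' deposited table gave ATF4-202 a p of 0.00642 and an adjusted value of 0.514. SHMT2, which makes glycine in mitochondria, had 247 against 139, with p 0.0164 for SHMT2-226 by the authors' deposited table. PHGDH and PSAT1, of serine synthesis, had 295 against 363 and 230 against 363. The authors' deposited table holds p-values of 0.00364 for PHGDH-202 and 0.0563 for PSAT1-202. Of the main transcripts 2 higher and 1 lower had an unadjusted p under 0.05, where 5.27% of all genes kept were higher and 8.53% lower at that threshold. Of all 235 transcripts of these genes with a p, 20 higher and 3 lower passed it, where 3.3% of all transcripts were higher and 2.48% lower, and transcripts of 1 gene share reads. Other known targets of ATF4 were named after their values had been seen. On the higher side were ATF5 (213 against 80.9), CHAC1 (85.3 against 41.1), TRIB3 (89.99 against 53.6) and DDIT3 (35.9 against 21.1). CTH (24.5 against 38.7) and ASNS (274 against 289) were on the lower side. None of these targets had a main transcript with an unadjusted p under 0.05 in the authors' test. The log2 ratio of ATF4 itself was 0.38, while 7 of the 9 transporters kept lay under 0 and SLC1A4 and SLC6A9 were at 0.19 each. The difference between the lists was not tested.

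**Figure D4:**
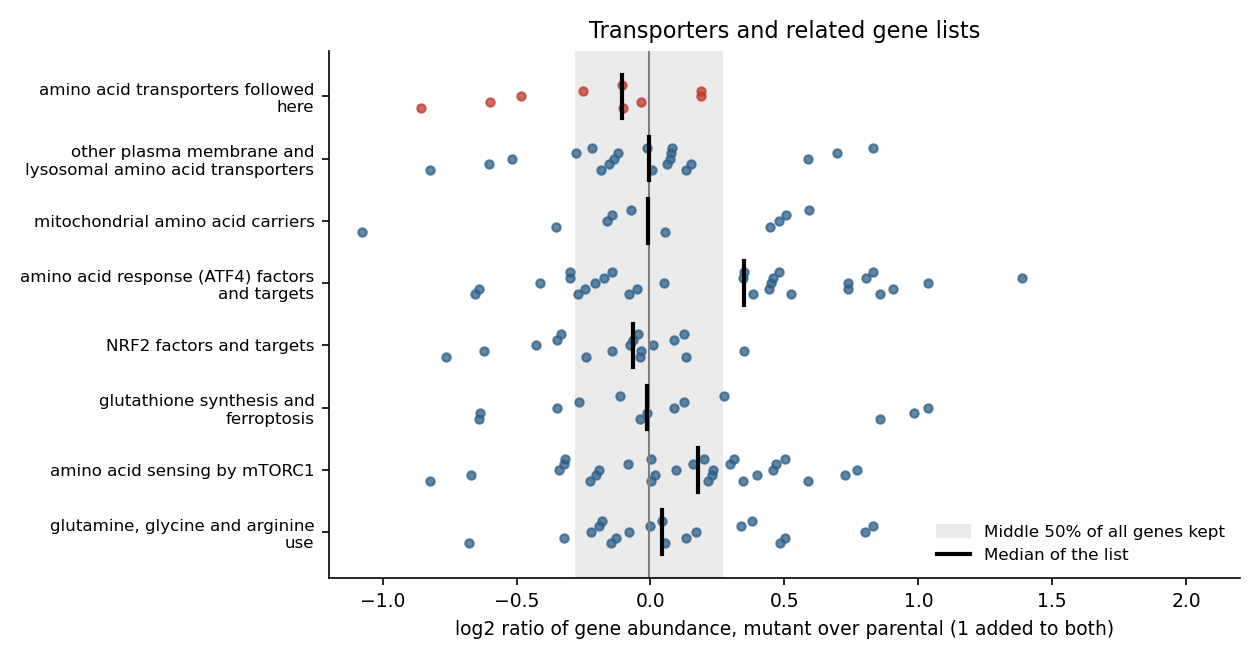
Log2 ratio of mutant over parental for each measured gene of the transporters and of 7 related lists, with the median of each list as a black bar and the middle 50% of all genes kept as a grey band. The list of the ATF4 response has its median at 0.35, outside the band, and the transporters have theirs at -0.11, inside it.

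Genes around the substrates of these carriers were mixed. The 17 measured genes of the list of NRF2, which also controls SLC7A11, had a median of -0.06, with 5 higher and 12 lower. Over all genes kept, 50.6% lay lower. HMOX1, which breaks down heme, had 12.7 against 22.2, and FTL, the ferritin light chain, 325 against 500. GCLC, of glutathione synthesis, had 13.0 against 16.9, and TXNRD1 24.3 against 25.5. No main transcript of the NRF2 list had an unadjusted p under 0.05 in the authors' test. Of 13 genes of glutathione synthesis and ferroptosis 6 lay higher and 7 lower (median -0.01), with GGT1, an enzyme that recovers cysteine from glutathione, at 4.46 against 1.76 and CHAC1, which degrades glutathione, at 85.3 against 41.1. GSR, which keeps glutathione reduced, had 21.1 against 25.6. In the list of glutamine, glycine and arginine use 10 of 19 genes lay higher (median 0.04). GCSH, of the glycine cleavage system, had 19.9 against 32.5 (p 0.000529 and adjusted p 0.260 for GCSH-210 by the authors' deposited table), GOT2 65.1 against 81.7 and GOT1 49.5 against 35.1. No transcript of these 3 lists was called.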

How the data were processed

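RNA of 3 parental and 3 CASP8AP2 Mutant HEK293 libraries was compared. Total RNA came from an RNeasy kit and libraries from the NEBNext Ultra RNA kit, per the labels' protocols. Per the submitters' processing notes, bcl2fastq, STAR and Partek were used with build hg38. The sources used here give no versions, annotation, normalization or read assignment. Per the file headers, the authors deposited 1 comparison: for each transcript a score named LSMean for each group, a signal named total counts, a ratio and a fold change as scores, and p-values and adjusted p-values, held as scores because some cells hold no number. LSMean minus 1 summed to 496162 in both groups and was taken as abundance. Gene levels are sums over transcripts, with 9 of the 80 member transcripts left out because no mean was given for them.

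No test was run here: calls are the authors' adjusted p under 0.05. Genes were kept where the abundance reached 1 in a group. Names, types, length and GC content came from GENCODE 29 on the same build, where 99.1% of transcript names were found, and promoters from RefSeq. The GC trend was a running median over 40 bins, averaged over 5. The size of 1 read was the most frequent step of abundance times length among transcripts with a p of 0.374, which reads in 1 of 6 libraries give. Both steps were tested on simulated data. The intended design named fits of single libraries where given, and otherwise a description. Named were all members, their transcripts with an abundance of 1 or more, and in each list the 4 genes with the smallest p of the main transcript. A minor SLC3A2 transcript, further ATF4 targets, the overlapping genes and the grouping by start site were picked after values had been seen. Members and lists were chosen with earlier results of these data known. Python 3.11.15, pandas 2.3.3 and numpy 2.4.6 were used.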

Additional observations from a re-analysis of the deposited data

How the results depend on the processing

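The 9 genes kept their direction with 0.1 added in place of 1, with the main transcript in place of the sum, with coding transcripts alone, and with the median of all genes or the GC trend taken off. The count of lower genes was 7 under each of these and 8 without a filter on low values, and the median ran from -0.30 to -0.10. SLC7A3 depended on the added value, with -0.36 at 1 and -1.90 at 0.1. Transcripts called numbered 0 at an adjusted p under 0.05 or 0.01 and 3 at an unadjusted p under 0.05, of which 1 had an abundance of at least 5. The list medians of the ATF4, NRF2 and mTORC1 genes kept their sign under every setting tried for them, and those of the 4 other lists, which lay nearer 0, turned in 5 cases. With an abundance of at least 5 the other transporters had 0.061 and the genes of glutamine, glycine and arginine use -0.042. The mitochondrial carriers had 0.0080 without a filter and 0.011 with the main transcript, and the glutathione genes had 0.0035 with the main transcript. The cause was not tested. No paired analysis was possible because only group means were given, and leaving out single libraries, other normalizations and other test tools were not run for the same reason. The parental libraries were shallower than the deepest mutant one by up to 6.26 times, which limits the low transcripts most.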

Other observations

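Carriers of amino acids in the inner mitochondrial membrane lay to both sides. Of 10 measured genes 5 lay higher and 5 lower around a median log2 ratio of -0.0097, and no transcript was called. SLC25A13, an exchanger of aspartate and glutamate, had 8.33 in the mutant and 18.7 in the parental cells (p 0.0667 for SLC25A13-201 by the authors' deposited table). SFXN3, a serine carrier, had 7.70 against 4.78 (p 0.0118 for SFXN3-205, from the same source) and SLC25A29, a carrier of basic amino acids, 18.6 against 12.8. SLC25A44, a carrier of branched-chain amino acids, had 6.61 against 7.52.

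Genes through which amino acids signal to mTORC1 had a median log2 ratio of 0.18 over 28 measured genes, and 0.11 with the GC trend taken off. Of these genes 19 lay higher and 9 lower, where 49.4% of all genes kept lay higher, and no transcript was called. Of the 399 transcripts of these genes with a p, 21 higher and 5 lower had an unadjusted p under 0.05 in the authors' test. Over all transcripts with a p, 3.3% were higher and 2.48% lower at that threshold, and transcripts of 1 gene share reads. RRAGC, a Rag GTPase that holds mTORC1 at the lysosome, had 9.85 against 16.3 (p 0.000725 and adjusted p 0.275 for RRAGC-201 by the authors' deposited table), and RRAGA, its partner, 28.2 against 33.2. LAMTOR5, of the Ragulator complex, had 52.1 against 66.3 and MLST8, a subunit of mTORC1, 75.4 against 43.8. The 4 named genes were those of the list with the smallest p of the main transcript, so other transcripts with a p under 0.05 are not named.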
